A study of Lolium arundinaceum with 6 samples.

Results

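SCF complexes are ubiquitin ligases that mark chosen proteins for destruction by the proteasome. A cullin (CUL1) carries the RING subunit RBX1 at one end and the adaptor SKP1 at the other, and SKP1 binds an exchangeable F-box protein, which selects the substrate. Plants have large families of F-box proteins and several SKP1-like proteins (named ASK in Arabidopsis), and SCF complexes act in the signalling of jasmonate, gibberellin, auxin and light.

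Described here were 7 unigenes of tall fescue (Lolium arundinaceum) leaves that the study had placed among F-box proteins or SKP1-like adaptors, of 179680 unigenes in the count table. They comprised 4 F-box unigenes (c110817_g2, named VFB3, c128658_g1, c136785_g1 and c149714_g1) and 3 SKP1-like unigenes (c143747_g1, named SKP1B, c124684_g1, named ASK11, and c126840_g1, named ASK4). They were selected on their response to heat in these same libraries, so their differences from the controls are given as a description, with no p-value.

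The study sequenced leaf RNA of wild-type seedlings 10 days old, which were either controls sampled at 0 h or had been held at 38 °C for 2 h (heat 2 h) or 12 h (heat 12 h), with 2 biological replicates per condition. The labels give a single control group at 0 h for both heat times, while headings in the study's supplementary tables name controls of the same hours as the heat. The labels were followed here, and with them the hours of heat cannot be told apart from time of day or further growth. Library totals lay between 6349775 and 7891566 counts. Replicates were least alike at heat 2 h: over well-expressed unigenes, replicate 1 minus replicate 2 on the log2 scale had an SD of 0.255 in the controls, 0.507 at heat 2 h and 0.247 at heat 12 h. Heat 2 h replicate 1 was the higher one for all 7 unigenes described, and for 35 of 48 F-box unigenes averaging at least 10 CPM. The same share over all unigenes was not computed, so this lean is not read as particular to F-box unigenes. Of 7 leaf markers fixed for a check of the tissue, 4 stood above 1 CPM (the count scaled to library size) in every library, and the 7 together summed to 10636 and 10812 CPM in the controls, 6427 to 8298 CPM at heat 2 h and 3154 to 3273 CPM at heat 12 h. Nearly all of each sum came from 2 photosystem I unigenes, PSAO (5185 and 5279 CPM in the controls) and PSAK (5328 and 5359 CPM). Of the chlorophyll-binding CAB1 unigenes, c138665_g1 and c88020_g1 had no count in at least 1 library, and c138665_g1 was highest at heat 12 h (18.8 and 16.3 CPM). In another, c109639_g1, the controls (18.9 and 23.9 CPM) and heat 12 h (22.5 and 15.05 CPM) overlapped. The summed leaf markers thus moved with the heat groups, and their part in the results below was not tested. In whole leaves, fewer cells of a type and less RNA per cell cannot be told apart.

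The 4 F-box unigenes were far lower in control leaves than after heat, with 3 of them under 2 CPM in each control library and c149714_g1 at 3.0 to 5.15 CPM, and they followed different courses between 2 h and 12 h. The 3 SKP1-like unigenes were unlike each other: SKP1B was already well expressed in control leaves, ASK11 was low and variable, and ASK4 c126840_g1 was at the limit of detection before heat. All 7 passed the filter on low counts. In each of the 7, both heat 2 h libraries and both heat 12 h libraries lay above both control libraries, as they did for 35% of all unigenes tested at 2 h and 41.6% at 12 h. A unigene was called where it differed by a fold change of 2 or more with an edgeR adjusted p no higher than 0.05, the study's thresholds. By these, 6 of the 7 were called higher at 2 h, where 15.1% of the 28005 unigenes tested were called higher. At 12 h all 7 were called higher, beside 25.3% of all unigenes. Because these contrasts chose the unigenes, nothing is read from those counts.

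**Figure D1:**
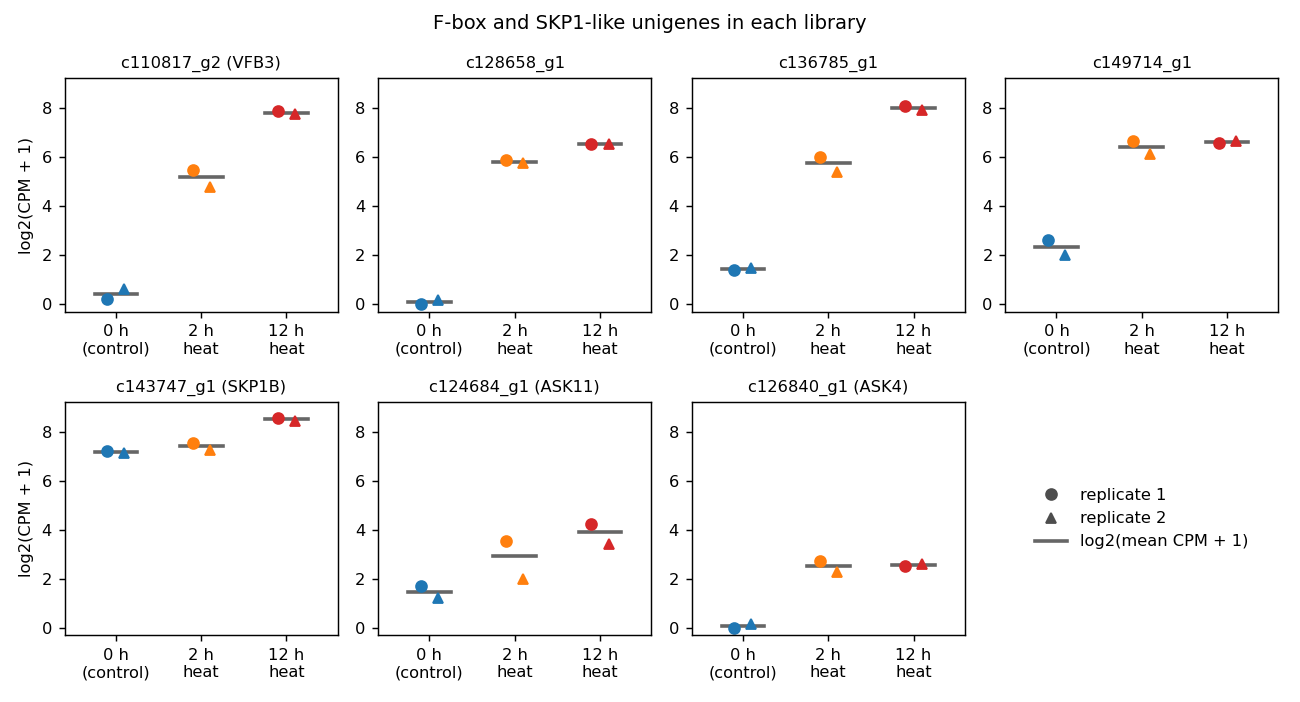
Expression of the 4 F-box unigenes (upper row) and the 3 SKP1-like unigenes (lower row) in each library, as log2(CPM + 1), against hours of heat. Circles and triangles mark replicates 1 and 2 and bars the group means. All heat libraries lie above the control libraries of the same unigene, c110817_g2 and c136785_g1 climb further at 12 h, and c149714_g1 and c126840_g1 stand at about the same level at both heat times.

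The unigene c136785_g1 is an F-box protein by both of its best matches, the rice protein OsFBX411 and an Arabidopsis F-box/RNI-like protein, a class in which leucine-rich repeats hold the substrate. Its control libraries held 10 and 14 counts, or 1.61 and 1.83 CPM. The level was 63.9 and 41.1 CPM at heat 2 h, and 266.9 and 237.4 CPM at heat 12 h. No library of one group reached the range of another. On the log2 scale heat 2 h exceeded the controls by 4.91 (standard error 0.29) and heat 12 h by 7.17 (0.29), with 2.26 (0.20) between 12 h and 2 h.

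The second F-box/RNI-like unigene, c149714_g1, best matched rice OsFBX18. It had 5.15 and 3.0 CPM in the controls, 99.7 and 68.4 CPM at heat 2 h, and 95.2 and 100.0 CPM at heat 12 h. Its heat libraries overlapped, so the level reached at 2 h was about that found at 12 h. The log2 difference from the controls was 4.39 (standard error 0.27) at 2 h and 4.60 (0.27) at 12 h, and 0.21 (0.21) between the heat times, which became -0.05 when libraries were scaled by their totals alone. A neighbouring unigene of the same assembly cluster, c149714_g2, was also higher after heat, at a low level. It had 0.805 and 0.131 CPM in the controls, 5.26 and 2.69 CPM at heat 2 h, and 2.37 and 1.98 CPM at heat 12 h. Unlike c149714_g1 it lay lower at 12 h than at 2 h, by a log2 difference of -0.88 (standard error 0.50) that did not pass. Such neighbours can be other transcripts of one gene or near copies, and reads between them may have been split. Of 4 unigenes in the clusters of these 7, c149714_g2 was the one that passed the filter.

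The name VFB3 of c110817_g2 rests on a weak Arabidopsis match, and its strong rice match carries no F-box in its name, so the F-box label is uncertain. It was almost absent from the controls, with 1 and 4 counts (0.161 and 0.523 CPM). It stood at 43.9 and 26.2 CPM at heat 2 h and at 233.2 and 213.1 CPM at heat 12 h. The groups did not overlap at any step. The log2 difference from the controls was 6.54 (standard error 0.42) at 2 h and 9.21 (0.39) at 12 h, and 2.67 (0.23) between 12 h and 2 h. The control counts limited the precision: without control replicate 1 the fitted values were 6.0 at 2 h and 8.68 at 12 h, and without control replicate 2 they were 7.59 and 10.28. With 1 CPM added to the group means they were 4.75 and 7.38.

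The label of c128658_g1 is the least secure. Its Arabidopsis match, an F-box associated ubiquitination effector, is weak, and its rice match is described as a retrotransposon protein. It was also the 1 unigene of the 7 with values that were not whole numbers, so that some of its reads were shared with other transcripts. The controls held 0 and 1 count. The heat 2 h libraries had 57.2 and 53.0 CPM, and the heat 12 h libraries 92.5 and 92.3 CPM. Against the single control count, the level was 766 times higher at 2 h (95% exact counting interval 137 to 30270) and 1280 times higher at 12 h (229 to 50610). These intervals cover counting error only. Between 12 h and 2 h the log2 difference was 0.74 (standard error 0.17), and the libraries of the heat times did not overlap.

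A pair of unigenes outside the F-box list, c153751_g1 and c153751_g3, carry the same Arabidopsis match as c128658_g1 and rice matches that are also described as retrotransposon proteins. Both were called higher at both heat times. The one with more counts, c153751_g1, had 0.322 and 0 CPM in the controls (2 counts in all), 8.49 and 8.46 CPM at heat 2 h, and 4.23 and 5.01 CPM at heat 12 h. Its ratio to the controls was 58.8 at 2 h (95% exact counting interval 15.9 to 490) and 32.2 at 12 h (8.52 to 272). For c153751_g3, with 1 control count, the ratios were 31.6 (5.32 to 1281) and 18.9 (2.96 to 789). At 12 h against 2 h both lay lower, by -0.87 (standard error 0.35) and -0.74 (0.52) on the log2 scale, and neither difference passed the thresholds (edgeR adjusted p = 0.0615 and 0.261). In c128658_g1 the same difference was positive.

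The 4 F-box unigenes together took a small share of the study's F-box list before heat and a large one after it. Since they were selected on their response to heat, that rise follows from the selection and is a description. The list holds only unigenes that the study had called changed, and the F-box label of c110817_g2 and c128658_g1 is uncertain. Of the summed CPM of the 133 unigenes in the study's F-box list, they made up 0.522 and 0.395% in the controls, 14.7 and 12.7% at heat 2 h, and 22.9 and 21.8% at heat 12 h. The other 129 summed to 1321 and 1384 CPM in the controls, 1538 and 1294 CPM at heat 2 h, and 2311 and 2306 CPM at heat 12 h. The sums of the other unigenes at 2 h lay on either side of the controls, and those at 12 h were above every other library.

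SKP1B, the unigene c143747_g1, matched the SKP1-like protein 1B of rice and ASK2 of Arabidopsis, a main SKP1 adaptor there. It had 148.7 and 140.6 CPM in the controls, 186.1 and 150.7 CPM at heat 2 h, and 371.2 and 349.2 CPM at heat 12 h. At 2 h the gap between replicates was larger than the gap between the lower one and the controls. The log2 difference from the controls was 0.22 (standard error 0.15) at 2 h, the 1 value of the 7 below a fold change of 2, and 1.32 (0.15) at 12 h. Between 12 h and 2 h it was 1.10 (0.15).

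ASK11, the unigene c124684_g1, has weaker matches to Arabidopsis ASK11 and to a rice protein with a Skp1 dimerisation domain. It had 2.25 and 1.31 CPM in the controls, 10.5 and 2.95 CPM at heat 2 h, and 17.9 and 9.73 CPM at heat 12 h. The replicates at 2 h lay 1.83 apart on the log2 scale, the widest gap of the 7, and the heat times overlapped. The log2 difference from the controls was 1.96 (standard error 0.59) at 2 h and 2.97 (0.57) at 12 h. Without heat 2 h replicate 1 the value at 2 h fell to 0.77, and without replicate 2 it was 2.57.

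ASK4, the unigene c126840_g1, matched ASK4 of Arabidopsis and a rice protein with a Skp1 dimerisation domain. Its control libraries held 0 and 1 count. The heat 2 h libraries held 47 and 29 counts (5.62 and 3.90 CPM) and the heat 12 h libraries 28 and 34 counts (4.74 and 5.17 CPM). The level was 66.7 times that of the controls at 2 h (95% exact counting interval 11.6 to 2667) and 68.8 times at 12 h (11.9 to 2762). The log2 difference between 12 h and 2 h was 0.05 (standard error 0.36), with the 12 h libraries inside the range of the 2 h ones. The second unigene named ASK4, c140146_g1, behaved otherwise, with 8.05 and 5.88 CPM in the controls, 9.21 and 10.2 CPM at heat 2 h, and 27.8 and 25.7 CPM at heat 12 h.

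The other 5 unigenes listed with the SCF core and its regulators were compared next. Among them, the BTB/POZ protein c127911_g1 is tied to SCF here only by a Skp1 domain named in its rice match. Its place in the complex is uncertain, and it is counted with the rest below. All 5 come, like c140146_g1, from the study's list of unigenes changed by heat, so their calls are not independent evidence. At 12 h, 5 of the 6 listed unigenes that are not among the 7 were called higher and none lower, beside 25.3% and 23.3% of all unigenes. At 2 h 1 of the 6 was called higher, or 16.7%, close to the 15.1% of all unigenes. The median log2 fold change of the 6 was 0.61 at 2 h and 1.55 at 12 h, where that of all unigenes was 0.05 and 0.00. CUL1 (c145616_g1), the scaffold, was the exception in its course: it rose by 1.25 (standard error 0.31) at 2 h and had a value of 0.70 (0.33) at 12 h that did not pass. Its rise at 2 h was no longer called without control replicate 1 (1.11) or heat 2 h replicate 1 (0.99). RBX1 (c140097_g1), which recruits the ubiquitin-charged E2, had 0.73 (0.32) at 2 h, which did not pass, and rose by 1.23 (0.32) at 12 h, a call lost without control replicate 2 (1.14).

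Of the enzymes that attach and remove the NEDD8-like modifier RUB on cullins, AXR1 (c149687_g1), a subunit of the activating enzyme, and CSN5A (c147682_g1), the catalytic subunit of the COP9 signalosome, both rose at 12 h. AXR1 had 16.7 and 17.5 CPM in the controls, 19.4 and 25.3 CPM at heat 2 h, and 44.7 and 44.4 CPM at heat 12 h. CSN5A had 5.48 and 7.97 CPM in the controls, 8.37 and 8.33 CPM at heat 2 h, and 28.3 and 25.4 CPM at heat 12 h. Their log2 differences from the controls at 12 h were 1.38 (standard error 0.19) and 1.98 (0.24), against 0.38 (0.20) and 0.30 (0.26) at 2 h, which did not pass. The unigene c127911_g1, a BTB/POZ protein whose rice match has a Skp1 tetramerisation domain, rose by 1.72 (0.18) at 12 h.

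**Figure D2:**
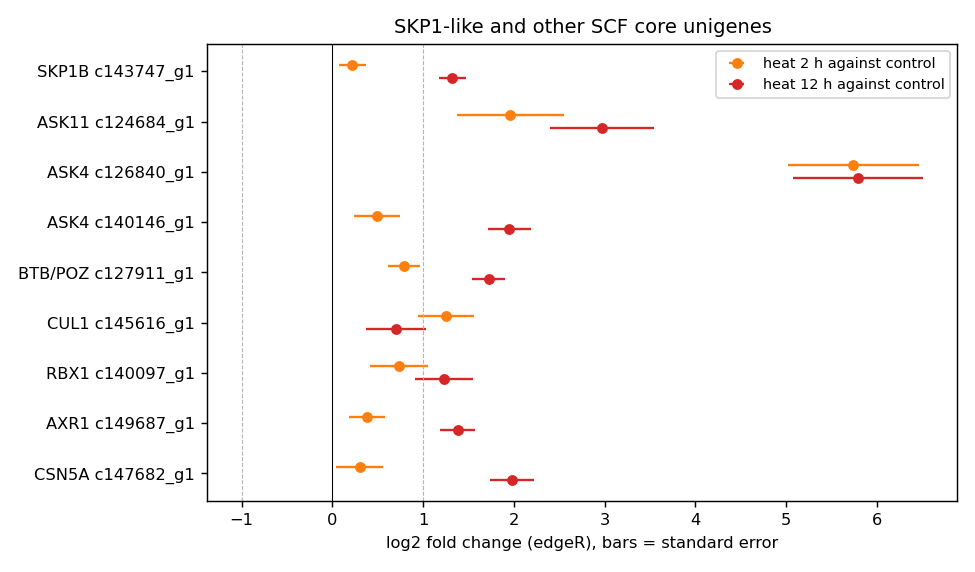
Log2 fold changes of the 3 SKP1-like unigenes described and the 6 other unigenes listed with the SCF core and its regulators, at heat 2 h (orange) and heat 12 h (red) against the controls. Bars are standard errors and dashed lines mark a fold change of 2. ASK4 c126840_g1 stands apart at 5.74 and 5.79, both fitted on 1 control count, and CUL1 is the 1 unigene with its larger value at 2 h.

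The F-box list as a whole gives the setting of the 4 F-box unigenes. It holds 133 unigenes that the study had already called changed by heat in these libraries, so its counts describe that selection. Of the 128 that passed the filter, 44 were called higher and 6 lower at 2 h, beside 15.1% and 8.98% of all unigenes. At 12 h, 89 were higher and 31 lower, beside 25.3% and 23.3% of all unigenes. Of those called in either direction, 88% were higher at 2 h and 74.2% at 12 h, where the same shares over all unigenes were 62.8% and 52%. No F-box unigene was called in opposite directions at the 2 times, and 45 were called in the same direction at both. Both times were compared with the same controls, and the matching shares over all unigenes were not computed. Nothing is read from these joint counts. By fitted log2 fold change c128658_g1 had rank 1 of the 128 at both times, c110817_g2 had rank 3 at 2 h and rank 2 at 12 h, c136785_g1 rank 4 at both, and c149714_g1 rank 6 at 2 h and rank 8 at 12 h. The order rests on few control counts: with 1 CPM added to the group means, an alternative for ranks chosen after seeing the data, c128658_g1 had rank 2 at 2 h and rank 4 at 12 h, and c110817_g2 rank 3 and rank 1.

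Counts by domain describe the same selection by the study, and differences between domains were not tested. Over all unigenes tested, 15.1% were called higher and 8.98% lower at 2 h, and 25.3% and 23.3% at 12 h. By the domain in their names, 49 unigenes had leucine-rich repeats or an FBD domain. Of these, 19 were called higher and 1 lower at 2 h, and 38 higher and 8 lower at 12 h. Of 20 with an F-box associated domain, 11 were higher and 1 lower at 2 h, and 14 higher and 4 lower at 12 h. Of 35 with no such domain named, 11 were higher and 1 lower at 2 h, and 26 higher and 8 lower at 12 h. The kelch proteins divided, with 2 of 17 higher and 2 lower at 2 h, and 9 higher and 8 lower at 12 h. Of 4 tubby proteins, none was higher and 1 lower at 2 h, and 1 was higher and 2 lower at 12 h. Among the 27 tested unigenes whose rice match was not named an F-box protein, which include c110817_g2 and c128658_g1, 13 were higher and none lower at 2 h, and 16 were higher and 8 lower at 12 h.

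**Figure D3:**
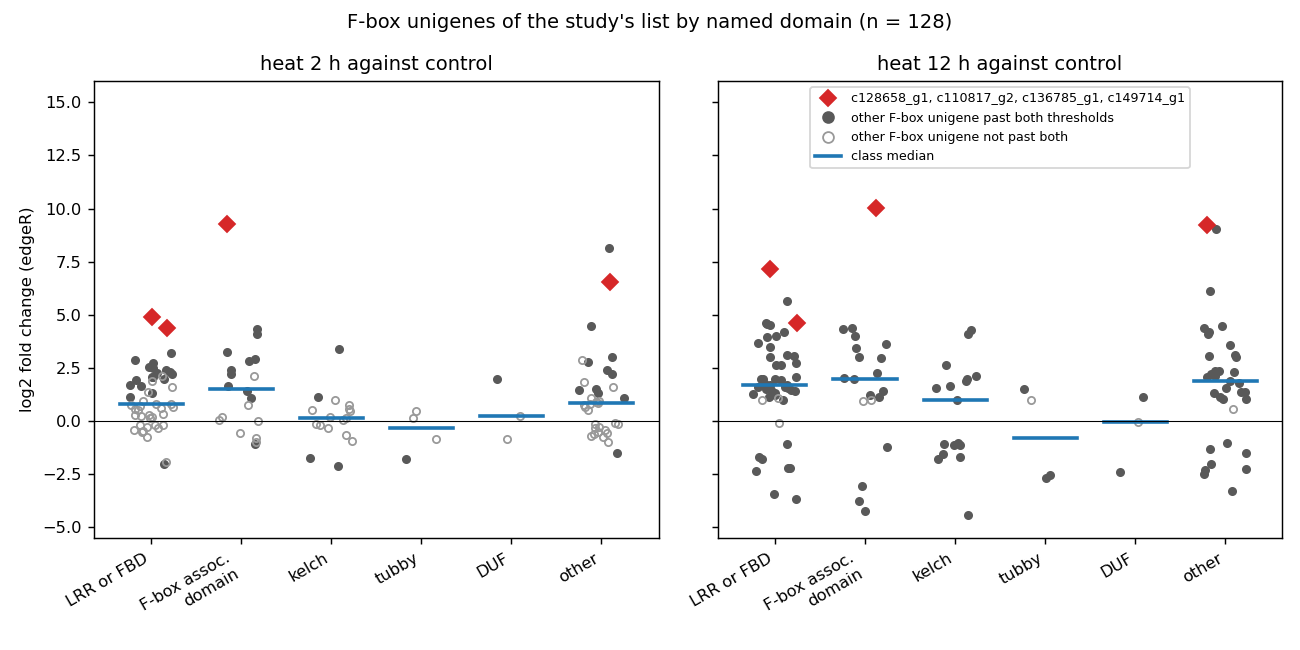
Log2 fold changes of the 128 tested F-box unigenes at heat 2 h (left) and heat 12 h (right) against the controls, grouped by the domain in their names. Diamonds are the 4 F-box unigenes described, filled circles passed both thresholds, open circles did not and bars are class medians, which at 12 h run from -0.79 for tubby proteins to 2.00 for those with an F-box associated domain.

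The F-box unigene that the study followed by PCR, c149592_g1, stood close to c128658_g1 in rank and course. It had 0.322 and 0.131 CPM in the controls (3 counts in all), 78.4 and 54.9 CPM at heat 2 h, and 127.7 and 122.2 CPM at heat 12 h. Its level was 311 times that of the controls at 2 h (95% exact counting interval 106 to 1512) and 577 times at 12 h (197 to 2799). It matched rice OsFBX257 and was named an F-box protein in both species.

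Other F-box unigenes moved late or fell. The unigene c150819_g1, an F-box family protein matching rice OsFBX260, had 2.09 and 2.74 CPM in the controls, 1.44 and 2.69 CPM at heat 2 h, and 54.3 and 55.6 CPM at heat 12 h. Its difference of 4.74 (standard error 0.28) between 12 h and 2 h on the log2 scale was the largest among F-box unigenes averaging at least 10 CPM whose libraries did not overlap. The kelch unigene c142393_g2 had 356.9 and 374.9 CPM in the controls, 130.5 and 92.3 CPM at heat 2 h, and 180.0 and 151.1 CPM at heat 12 h. It was the 1 unigene with such a level and separation that was called lower at 2 h, by -1.72 (0.18). At 12 h the largest falls of that kind were those of c149787_g1, an F-box protein with WD40 repeats (-2.50, standard error 0.22), c141506_g3, of the DUF295 group (-2.39, 0.24), and c151765_g1, which matched rice OsFBX323 (-2.30, 0.22).

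Compared directly, 46 of the 128 F-box unigenes stood higher after 12 h of heat and 23 stood lower than after 2 h, beside 16.2% higher and 19.6% lower of all unigenes. Their median log2 difference was 0.75, and that of all unigenes was -0.09. Of the 7 unigenes described, c110817_g2, c136785_g1 and SKP1B were called higher at 12 h in that comparison. The SKP1B value of 1.10 fell short of a fold change of 2 with scaling by library totals alone (0.83). It also fell short without heat 2 h replicate 2 (0.99).

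The list held 14 F-box unigenes named after Arabidopsis proteins with a known target or pathway. None of the 7 unigenes described is among them. At 2 h 2 were called higher and 1 lower, or 14.3% and 7.14%, close to the 15.1% and 8.98% of all unigenes. At 12 h 9 were higher and 3 lower, or 64.3% and 21.4%, beside 25.3% and 23.3% of all unigenes. These 14 too were selected by the study on these libraries. Several take part in hormone signalling. COI1 (c148194_g1), the jasmonate receptor, had 33.8 and 34.1 CPM in the controls, 51.2 and 45.9 CPM at heat 2 h, and 110.1 and 105.2 CPM at heat 12 h. It rose by 1.66 (standard error 0.16) at 12 h. SLY1 (c148969_g1), which targets the DELLA repressors of gibberellin signalling, rose by 2.09 (0.23) at 12 h. EBF1 (c155867_g1) and EBF2 (c129335_g1), which target the ethylene regulator EIN3, rose by 1.61 (0.19) and 1.14 (0.38) at 12 h. The call of EBF2 was lost without control replicate 1 (1.27) or 2 (0.98), or heat 12 h replicate 2 (1.07). It was also lost with the DESeq2 test (1.19) and with no filter beyond 1 count (1.13).

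MAX2 (c156375_g1) and KUF1 (c154491_g1), F-box proteins of strigolactone and karrikin signalling, were lower at 12 h. MAX2 had 22.9 and 27.9 CPM in the controls, 45.7 and 37.1 CPM at heat 2 h, and 10.2 and 13.7 CPM at heat 12 h, so its heat libraries lay above the controls at 2 h and below them at 12 h. Its log2 difference from the controls was 0.70 (standard error 0.21) at 2 h, short of a fold change of 2, and -1.09 (0.22) at 12 h, a call lost without control replicate 2 (-0.94) or heat 12 h replicate 1 (-0.87). KUF1 fell by 1.57 (0.33) at 12 h. HWS (c154787_g1), which acts in organ separation in Arabidopsis, had the lowest log2 fold changes of the F-box list at both times, with 19.2 and 15.8 CPM in the controls, 2.99 and 5.10 CPM at heat 2 h, and 0.339 and 1.22 CPM at heat 12 h. It fell by 2.11 (0.34) at 2 h and by 4.42 (0.45) at 12 h.

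Light-signalling F-box proteins were higher at 12 h. FKF1 (c150815_g1), a blue-light receptor of the photoperiod pathway, had 2.09 and 4.05 CPM in the controls, 6.22 and 6.18 CPM at heat 2 h, and 51.8 and 55.8 CPM at heat 12 h. Its log2 difference from the controls was 4.09 (standard error 0.27) at 12 h and 0.98 (0.30) at 2 h. FKF1 follows the time of day in Arabidopsis, and hours of heat and time of day cannot be told apart here. EID1 (c145455_g1) and AFR (c151977_g1), both of phytochrome A signalling, rose by 1.24 (0.25) and 1.87 (0.22) at 12 h.

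FBL17 (c151834_g1), which targets inhibitors of cyclin-dependent kinases, had 10.8 and 9.28 CPM in the controls, 33.4 and 29.0 CPM at heat 2 h, and 28.4 and 32.5 CPM at heat 12 h, and rose by 1.64 (standard error 0.20) and 1.61 (0.21). SKP2A (c135454_g1), which acts on cell cycle factors, had log2 values of 0.81 (0.44) and 1.10 (0.44) that did not pass. Its 12 h value was called under some alternatives, such as RLE scaling (1.15) and a fit of only the 4 libraries compared (1.08). CPR30 (c153686_g1), which holds immune receptors in check, rose by 1.10 (0.31) at 2 h. That call was lost without control replicate 1 (0.80) or heat 2 h replicate 2 (1.0), and with the DESeq2 test (1.07). FBW2 (c134104_g1), which acts on AGO1, rose by 1.90 (0.50) at 12 h, a call lost without heat 12 h replicate 2 (1.62).

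**Figure D4:**
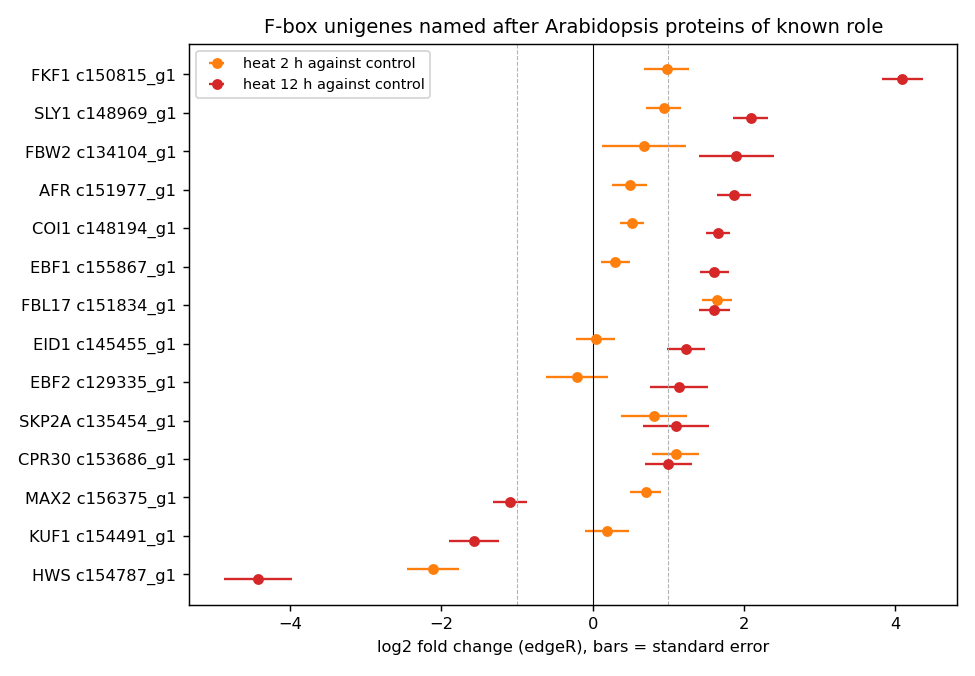
Log2 fold changes of the 14 F-box unigenes named after Arabidopsis proteins of known role, at heat 2 h (orange) and heat 12 h (red) against the controls, ordered by the value at 12 h. Bars are standard errors and dashed lines mark a fold change of 2 in either direction. FKF1 stands at 4.09 and HWS at -4.42 at 12 h, and MAX2, KUF1 and EBF2 have values on opposite sides of 0 at the 2 times.

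For each of the 7 unigenes, the most similar course among 136 other F-box and SCF unigenes was found by Pearson's r of log2(CPM + 1) over the 6 libraries, given as a description since the points share libraries and 3 conditions. The F-box unigenes c110817_g2 and c136785_g1 were each other's closest, with an r of 0.9995. The closest to c128658_g1 was c149592_g1 (0.9982), and the closest to ASK4 c126840_g1 was c128658_g1 (0.9912). FBL17 was closest to c149714_g1 (0.9957), EBF1 to SKP1B (0.9902), and the F-box unigene c138180_g1, with a weak Arabidopsis match, to ASK11 (0.9909). High values were common: 5 unigenes reached an r of 0.99 with c110817_g2, 7 with c136785_g1 and 4 with c128658_g1. With c149714_g1 it was 5, with ASK4 c126840_g1 4, and with SKP1B and ASK11 1 each. The r does not compare the size of the changes.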

How the data were processed

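Leaf RNA of 6 samples in 3 conditions was sequenced as paired-end reads by the authors, who assembled the transcripts with Trinity. The deposited table holds the authors' expected counts per unigene, not scaled between libraries, of which 0.157% are not whole. The paper names RSEM, whereas the submitters' processing notes list TopHat2 2.0.12, Bowtie2 2.2.3, HTSeq 0.6.1 and DESeq 1.18.0. No genome was used, and names are best Arabidopsis or rice matches. No sequence of the 7 unigenes was used here.

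Counts were rounded, filtered by filterByExpr (minimum count 10), which kept 28005 of 179680 unigenes and 97.7 to 98.4% of counts, scaled by TMM and fitted in edgeR 4.0.16 (R 4.3.3) by quasi-likelihood over all 6 libraries with 3 residual degrees of freedom. The fit was tested on simulated data. CPM are TMM-scaled. Benjamini-Hochberg adjustment covered all unigenes tested, and p-values reflect only how these 6 libraries varied. Where controls summed to 1 to 3 counts, the ratio is given with its exact 95% interval for counting error, since fitted values there depend on the prior count. In 1 library, 3 counts correspond to 0.359 to 0.508 CPM.

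The members, lists and tests were chosen with earlier results of these data known, and the F-box and SCF lists come from the study's table of unigenes changed in these libraries. Named were the 7 unigenes, the SCF and known-role lists, relatives of c128658_g1, the unigene measured by PCR, the 3 largest and 3 lowest called F-box unigenes per comparison (mean of at least 10 CPM, no overlap between groups), tested neighbours in assembly clusters, and the most similar unigene of each. Replicate numbers did not pair the samples. Alternatives were other scaling, filter and test (DESeq2 1.42.0), fewer libraries and a replicate block.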

Additional observations from a re-analysis of the deposited data

Results flagged for a closer look

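The times of heat differed by the direct comparison (edgeR, adjusted p at most 0.05 and a fold change of at least 2) in 17 of the named SCF and F-box unigenes, besides the 7 described, whose response had chosen them. Over all unigenes tested, 16.2% were higher and 19.6% lower in that comparison. Of the 6 other SCF unigenes, 2 were higher and 0 lower. Of the 14 F-box unigenes of known role, 8 were higher and 3 lower. All 17 had also been selected by the study on the same libraries, and c150819_g1, c149787_g1, FKF1, MAX2 and KUF1 are among the F-box unigenes named for the size of this difference. Values are log2 differences of heat 12 h minus heat 2 h, and no explanation was tested. The SCF unigenes ASK4 c140146_g1 (1.46) and CSN5A (1.68) were higher at 12 h. So were COI1 (1.15), SLY1 (1.15), EBF1 (1.32), EBF2 (1.33), FKF1 (3.11), EID1 (1.20), FBW2 (1.22), AFR (1.38) and c150819_g1 (4.74). MAX2 (-1.79), KUF1 (-1.76), HWS (-2.31), c149787_g1 (-2.15), c141506_g3 (-1.56) and c151765_g1 (-1.33) were lower at 12 h. In all 17 except EBF2 and FBW2, the difference passed without any single replicate. In 4 of them, COI1, SLY1, EID1 and FBW2, it fell short of a fold change of 2 with scaling by library totals alone, at 0.88, 0.88, 0.93 and 0.95. For EBF2 the call was lost without heat 12 h replicate 2 (1.28). For FBW2, whose adjusted p was 0.0437, the difference lay between 0.86 and 1.83 with 1 library left out and was called in 1 of those 6 fits.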

How the results depend on the processing

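The 6 counts of F-box unigenes were recomputed under 15 alternatives each. All kept within 1.5 times the reported count except that 15 rather than 23 were lower at 12 h than at 2 h when only unigenes whose rice match is also named F-box were counted. That subset held 101 tested unigenes rather than 128, and the shares lower were 14.9% and 18%. With the replicate block, 43 were higher and 6 lower at 2 h, 89 higher and 31 lower at 12 h, and 44 higher and 23 lower between the times. For pairing, the deviation of replicate 1 from its group mean was correlated between groups over well-expressed unigenes. The r was -0.05 for control and heat 2 h, 0.04 for control and heat 12 h, and -0.04 for the 2 heat times. The replicate numbers were therefore not treated as pairs. With 1 library left out, the count higher at 2 h lay between 35 and 47 and that at 12 h between 76 and 94. Scaling by library totals alone moved the median log2 value of all unigenes to 0.20 at 2 h, -0.11 at 12 h and -0.36 between the times (0.05, 0.00 and -0.09 as reported), and gave 33 F-box unigenes higher and 30 lower in the direct comparison of the times.

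No member's called difference changed sign. The fitted value depended most on the few control counts: for c128658_g1 it ran over the alternatives from 5.72 to 11.56 at 2 h and from 6.45 to 12.33 at 12 h, and for c126840_g1 from 2.43 to 8.03 and from 2.48 to 8.11, lowest with 1 CPM added to group means and highest without control replicate 2. For c110817_g2 it ran from 4.75 to 7.59 at 2 h and from 7.38 to 10.28 at 12 h, lowest and highest under the same alternatives. For c136785_g1 it ran from 6.54 to 7.30 at 12 h, and for SKP1B from 1.20 to 1.40. Between 12 h and 2 h the SKP1B value ran from 0.83 to 1.27, on either side of a fold change of 2. With 2 libraries per group, replicate spread limits every standard error.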
